A study of Mus musculus with 16 samples.

Results

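The genes described here encode the proteins of the cytosolic ribosome. A row of the table, which is a RefSeq transcript, was a member where its symbol begins with Rpl or Rps followed by a digit, or is Rplp0 to Rplp2 or Rpsa, leaving out the Rps6k kinases. This rule took 176 of 130343 rows, which belong to 99 genes. Of these, 64 genes have 1 row and carry the comparisons, and 35 genes have several rows and are shown beside them. The 64 genes comprise 27 core proteins of the 60S subunit, 20 core proteins of the 40S subunit, 5 paralogs of core genes, 9 pseudogenes and 3 other genes whose symbols match (Rps19bp1, Rps23rg1 and Rpl32l), which are not core ribosomal proteins.

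The ribosome translates mRNA into protein. The small 40S subunit reads the mRNA, and the large 60S subunit joins the amino acids. Most ribosomal protein mRNAs begin with a run of pyrimidines, the 5′ terminal oligopyrimidine (TOP) motif, through which mTORC1 controls their translation, and they count among the most abundant mRNAs of most cells. In adipose tissue they come from adipocytes, stromal cells, vessels and immune cells alike.

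The RNA came from inguinal subcutaneous adipose tissue (SAT) and mesenteric visceral adipose tissue (VAT) of male C57BL/6J mice. Obese mice (n = 4) ate a high-fat diet with 42% of its energy from fat and 0.2% cholesterol for 12 to 14 months from 10 weeks of age, and lean mice (n = 4) ate normal laboratory diet over the same span. Each mouse gave 1 SAT library, from the left and right depots together, and 1 VAT library, after visible vessels were taken off, so the 16 libraries form 4 groups of 4. All animals were wild-type males of 1 strain, and each tissue is a mix of cell types. Values below are CPM, the scaled count of the deposited table adjusted here with TMM factors, given in the order of replicates 1 to 4, with means ± SD over n = 4 libraries. Fold changes come from edgeR's quasi-likelihood test over 13288 rows, and a row was called at an adjusted p below 0.05.

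Total counts lay between 1256082 and 16614407. Both shallow libraries, VAT lean replicate 1 (1256082 counts) and VAT obese replicate 1 (2247737 counts), came from VAT. The tissue labels were checked against markers fixed for each cell type. Summed over 8 adipocyte genes, the level was at least 28112 CPM in every library. That of 5 mesothelial genes was between 245 and 597 CPM in VAT and between 0.165 and 1.41 CPM in SAT, so the depots were separated as labelled. The mitochondrial share of the counts was between 13.6% and 18.7% in lean libraries and between 9.63% and 14.1% in obese libraries.

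Start-site stretches of several members described below are shown because a TOP motif, where present, lies at the start of the mRNA. They are 30 bases long, come from RefSeq windows of mouse build GRCm38.p6 (the count table uses GRCm39), read 5′ to 3′ on the gene's strand, and carry each pyrimidine run in capitals.
Rpl37: cgggggtgCTTTCTCTTCCggtctctttgg
Rpl13a: cgacaagaCCTCCTCCTTTCCCaggcggct
Rpl27a: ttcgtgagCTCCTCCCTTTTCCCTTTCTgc
Rps23: ttgtgggtCCTTCCTgcaCCTCCTCTCTCT
Rps6: aagtcgggCCTCTTTTTCgtgacgcctccc
Rps2: taaattgtCCCTTCCgcggcgCCTCCCTCT
Rpl36al: tctgttcgtCCCTTTCCTgttcggcgcgtg
Rps27rt: ggtgacgaCCTCCCTacgagaacatgcctc
In GRCm38.p6 the Rpl37 stretch is chr15:5116633-5116662 (plus strand), Rpl13a chr7:45128722-45128751 (minus), Rpl27a chr7:109519183-109519212 (plus), Rps23 chr13:90923139-90923168 (plus), Rps6 chr4:86857347-86857376 (minus), Rps2 chr17:24720082-24720111 (plus), Rpl36al chr12:69184018-69184047 (minus) and Rps27rt chr9:114982701-114982730 (minus). A run was a C followed by at least 6 bases that are C or T, on the gene's strand, lying between 10 bases before and 40 bases after the annotated start. Windows were found for 33 of the 47 core genes with 1 row, and 19 of them (57.6%) held a run, against 21.1% of all 32851 windows. Letters CCGGAAG, the core of a binding motif of ETS factors, were searched on both strands of the 300-base window and stood in 14 of the 33 (42.4%) against 8.86% of all windows. Letters AAGATGG, part of the YY1 motif, stood in 5 (15.2%) against 6.34%. Rplp0, Rpsa, Rps16, Rps3, Rps3a1, Rpl10 and Rpl13 held no run in the searched span, which says only that these letters are not there. Rpl27a had the longest run of those printed, 20 bases. Runs of Rpl13a, Rpl27a and Rps6 begin within 4 bases of the annotated start, and those of the other printed members begin 17 or more bases past it, so these letters are not shown to be the first of the mRNA. Rps23 and Rps2 hold a second run that goes on past the searched span.

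How well the table measures a member depended on its number of rows. Core genes with 1 row had a median of 51648 counts over the 16 libraries, with a highest value of 186883. The 30 core genes with several rows had a median of 600 summed counts, with a range from 7 to 27090, so their low counts are not read as low expression. Of the 64 genes with 1 row, 57 passed the filter on low counts, among them 46 of 47 core genes. Among the 7 that did not pass were Rpl10l, listed at 0 in every library, Rpl32l with 8 counts, and the pseudogenes Rpl31-ps12, Rps15a-ps4, Rps18-ps4 and Rps19-ps3, with between 0 and 103 counts. Rpl4 passed with no more than 204 counts in all. Rpl4 is a component of every ribosome, so its values here describe the counting and not the tissue. Members with near-identical copies elsewhere in the genome, among them the paralogs and pseudogenes, may have shared reads, and although the library kit was directional, the strand setting of the counting is not stated, so overlapping antisense transcripts may have been counted together.

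Ribosomal protein transcripts were higher in VAT from obese mice than in VAT from lean mice. Of 57 genes tested, 32 were called higher and 0 lower, where 6.82% of all rows tested were called higher, and 56 had a log2 fold change above 0, also with RLE size factors and with library totals. The median log2 fold change was 0.48 over the members and 0.018 over all 13288 rows. Both subunits took part, with 15 of 27 core 60S genes called (median 0.47) and 15 of 19 core 40S genes called (median 0.51). None of the 57 was called lower by DESeq2 or limma voom either, and 0 had an unadjusted p below 0.05 in that direction. No member passed the log2 fold change limit of 1.5 that the study used, and the highest was 0.89 (Rps29, a small 40S protein with a zinc-binding motif, named after its value was seen).

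The summed level of the core genes with 1 row shows the same difference library by library. In VAT it was 16675, 18034, 16628 and 17019 CPM in lean mice and 19551, 22206, 24271 and 27948 CPM in obese mice. All 4 obese libraries lay above the 4 lean ones, and the obese libraries differed more among themselves than the lean ones did. The mean was 17089 ± 654 CPM in lean and 23494 ± 3542 CPM in obese mice, a ratio of 1.37 given here with no test. As a share of all counts, the core genes held 1.69% to 2.07% in VAT of lean mice, against 2.27% to 3.07% in VAT of obese mice. In SAT the sum was 16162, 15226, 14994 and 17596 CPM in lean mice and 15187, 14652, 13974 and 16172 CPM in obese mice, and the groups overlapped on this TMM scale. As a share of all counts they did not overlap, at 1.41% to 1.80% in SAT of lean mice and 1.22% to 1.33% in SAT of obese mice. In bulk tissue, more RNA per cell and more cells of a type rich in these transcripts cannot be told apart.

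**Figure D1:**
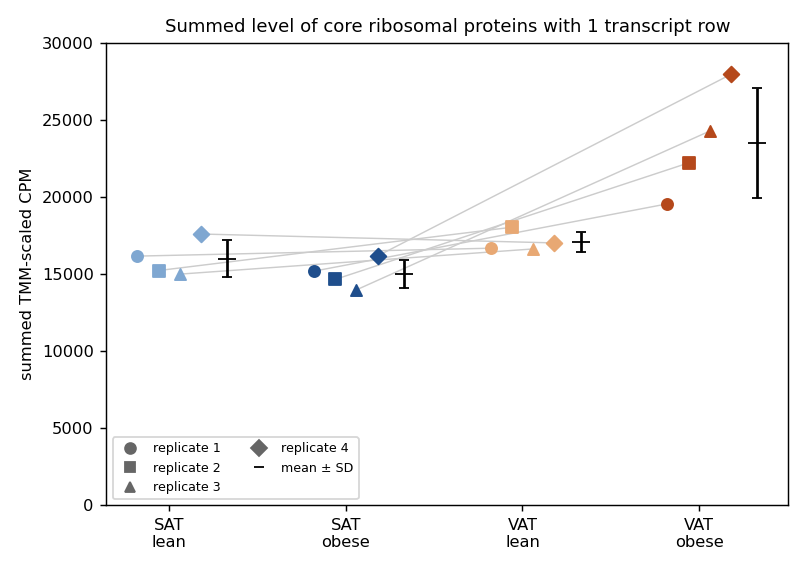
Summed TMM-scaled CPM of the core ribosomal protein genes with 1 row, by group. Each symbol is a library, grey lines join SAT and VAT of a mouse, and black bars are the mean ± SD of 4 libraries. VAT of obese mice, at 19551 to 27948 CPM, stands above the other 3 groups, which lie between 13974 and 18034 CPM.

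The subunits were in like proportion in all groups. The ratio of summed 60S to summed 40S levels was 1.11 to 1.17 in lean SAT, 1.14 to 1.20 in obese SAT, 1.09 to 1.20 in lean VAT and 1.09 to 1.19 in obese VAT, and these ranges overlap. Per kilobase of coding sequence, the mean level over all libraries had a median of 780 CPM among the core genes with 1 row, from 0.912 for Rpl4 to 4971 for Rpl41, which encodes the shortest of these proteins (75 coding bases). After Rpl41 the next levels per length were 1470 for Rps3a1 and 1339 for Rpl23, so Rpl41 stood far from the rest on this scale.

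The 5 members with the smallest adjusted p in VAT came from both subunits. Rpl37 (chr15:5145959-5153877 in GRCm39), a zinc-binding 60S protein, was at 147, 149.8, 132 and 126 CPM across lean VAT libraries, against 203, 216, 232 and 266 CPM across the obese ones. The groups did not overlap, and the lowest obese library was above the highest lean library by more than the spread of the lean group (log2 fold change 0.73, SE 0.13, adjusted p = 0.000509). Its level in SAT was 135 ± 17.2 CPM in lean mice and 129.8 ± 18.3 CPM in obese mice (log2 fold change -0.062, SE 0.13, adjusted p = 0.817).

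Rps20, a protein of the head of the 40S subunit, was at 277, 255, 247 and 241 CPM across lean VAT libraries, against 353, 348, 392 and 417 CPM across the obese ones (log2 fold change 0.57, SE 0.11, adjusted p = 0.00161). Its lean libraries were close together and all obese libraries lay above them. Rps16 (chr7:28049982-28052580), a 40S protein near the decoding site, was at 369, 291, 258 and 258 CPM across lean VAT libraries, against 442, 421, 435 and 479 CPM across the obese ones (log2 fold change 0.60, SE 0.13, adjusted p = 0.00269). Lean replicate 1 was the highest of its group, and the obese libraries still did not overlap with it.

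Rps23, a 40S protein that takes part in the accuracy of decoding, was at 332, 455, 396 and 389 CPM across lean VAT libraries, against 463, 560.0, 654 and 746 CPM across the obese ones (log2 fold change 0.62, SE 0.14, adjusted p = 0.00383). The obese group of Rps23 was wide, from just above the highest lean library to well above it. Rpl13a (chr7:44774982-44778263), a 60S protein that also acts outside the ribosome in repressing translation of inflammatory mRNAs, was at 531, 419, 419 and 399 CPM across lean VAT libraries, against 585, 619, 679 and 748 CPM across the obese ones (log2 fold change 0.58, SE 0.13, adjusted p = 0.00634). All obese libraries were above the lean ones, although lean replicate 1 stood apart from the other 3.

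Groups that did not overlap, with obese higher, were found for 13 of the 57 genes in VAT, where 8.36% of all rows showed this. The core genes among them were Rps13, Rps16, Rps20, Rps23, Rps7, Rpsa, Rpl12, Rpl13a, Rpl23a, Rpl27a, Rpl37 and Rpl41, and the other was Rps19bp1. They are named after their values were seen.

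**Figure D2:**
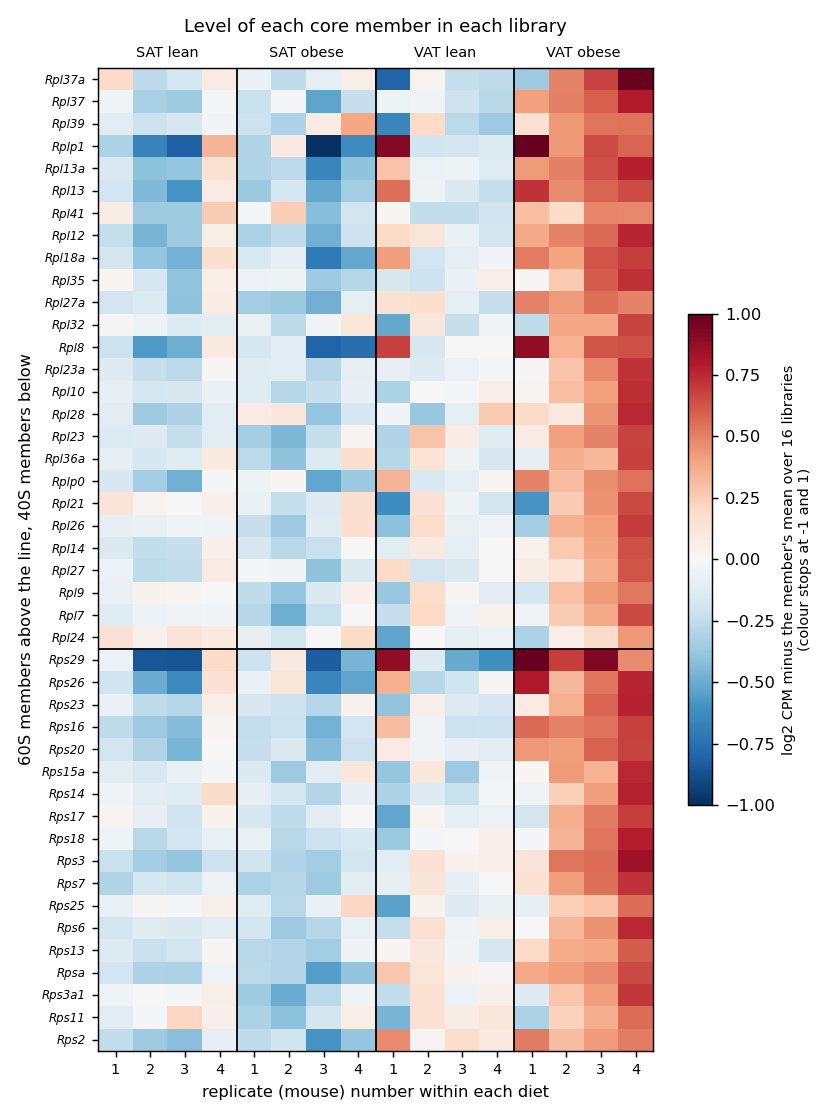
Level of 44 of the 46 core members tested in each of 16 libraries, as log2 CPM minus the member's own mean over all libraries. Columns are replicates within the 4 groups and rows are sorted by the VAT log2 fold change within each subunit. Rpl4, with 204 counts in all, is among those left out. Nearly every row is red in VAT of obese replicates 2 to 4, and the column of obese replicate 1 is mixed.

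Other members with known roles showed values near the same median. Rpsa (chr9:119956755-119962787), which is a 40S protein and also a cell-surface receptor for laminin, was at 1018, 916, 864 and 849 CPM across lean VAT libraries, against 1096, 1125, 1166 and 1329 CPM across the obese ones, with no overlap (log2 fold change 0.37, SE 0.11, adjusted p = 0.0247). Rps6, the 40S protein that S6 kinases phosphorylate, was at 563, 739, 643 and 691 CPM across lean VAT libraries, against 661, 837, 904 and 1120.5 CPM across the obese ones, where obese replicate 1 fell inside the lean range (log2 fold change 0.42, SE 0.13, adjusted p = 0.0399). Rps3, a 40S protein at the mRNA entry channel that also has a role in DNA repair, was at 591, 702, 650.0 and 656 CPM across lean VAT libraries, against 694, 919, 933 and 1139 CPM across the obese ones (log2 fold change 0.50, SE 0.12, adjusted p = 0.00756). Its obese replicate 1 lay inside the lean range too.

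Rpl10, a late-joining 60S protein encoded on the X chromosome, was at 539, 666, 661 and 701 CPM across lean VAT libraries, against 681, 825, 887 and 1118 CPM across the obese ones (log2 fold change 0.45, SE 0.13, adjusted p = 0.0210). The stalk proteins, which recruit elongation factors to the 60S subunit, did not pass the test. Rplp0 was at 1033, 733, 766 and 827 CPM across lean VAT libraries, against 1153, 1009, 1127 and 1187 CPM across the obese ones (log2 fold change 0.42, SE 0.14, adjusted p = 0.0505). Rplp1 was at 373, 172, 173 and 179 CPM across lean VAT libraries, against 459, 265, 309.5 and 295 CPM across the obese ones (log2 fold change 0.58, SE 0.27, adjusted p = 0.182). For both, lean replicate 1 lay above the other lean libraries, and for Rplp1 it also lay above 3 of the 4 obese libraries.

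The most abundant members by counts were Rps3a1, Rpl7 and Rpsa. Rps3a1 was at 960.2, 1269.7, 1096 and 1180.1 CPM across lean VAT libraries, against 1041, 1383, 1522 and 1864 CPM across the obese ones, which did not pass (log2 fold change 0.37, SE 0.14, adjusted p = 0.103). Rpl7, a 60S protein, was at 769.9, 1040.2, 883 and 932 CPM across lean VAT libraries, against 883, 1078, 1179 and 1427 CPM across the obese ones, which did not pass either (log2 fold change 0.33, SE 0.13, adjusted p = 0.120). In both genes obese replicate 1 lay within the lean range and replicate 4 was the highest. Of the 46 core genes tested, 16 were not called, with log2 fold changes from 0.24 (Rps2) to 0.58 (Rplp1), so all 46 were above 0.

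**Figure D3:**
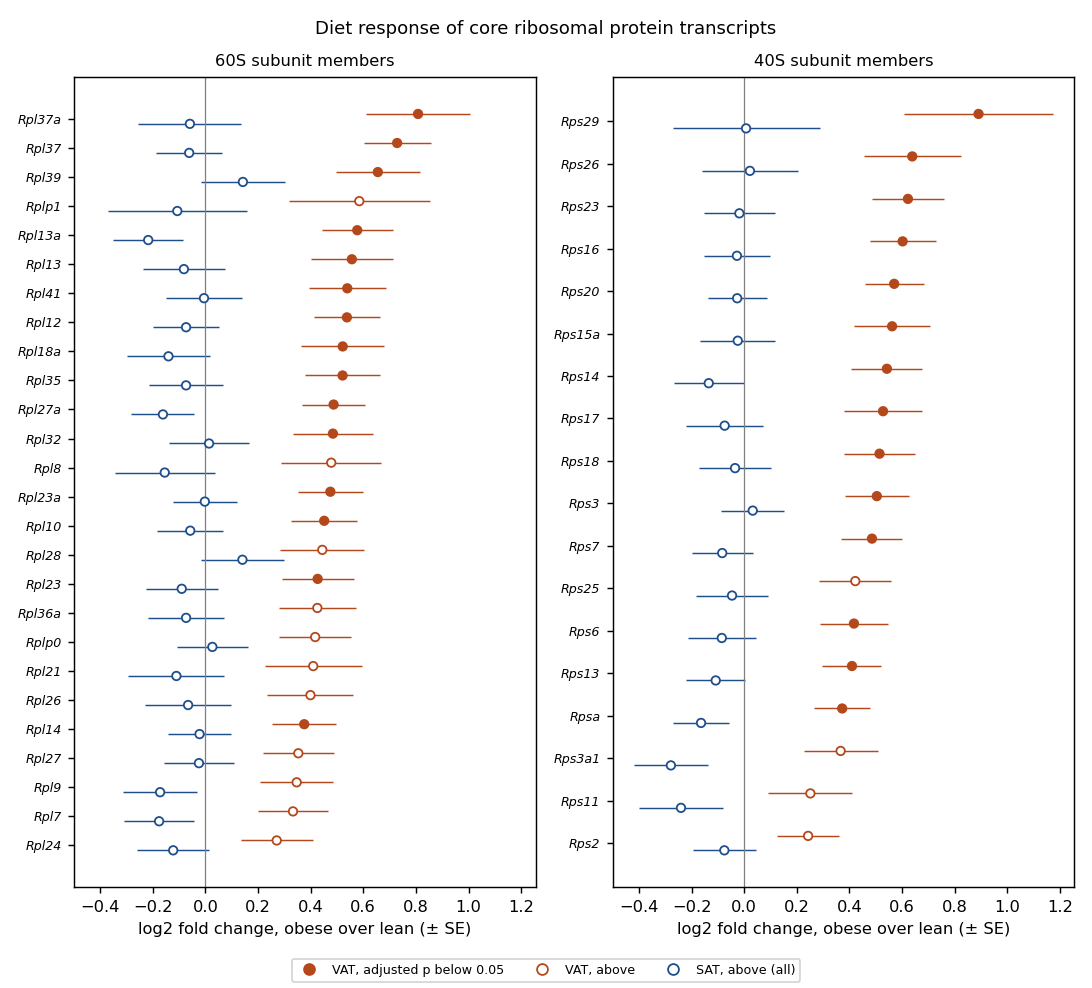
Log2 fold change, obese over lean, of 44 core members in VAT (orange) and SAT (blue), with bars for ± SE. Filled circles passed an adjusted p below 0.05. VAT values lie between 0.24 and 0.89 and SAT values lie on both sides of 0, with none called.

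These calls, and the share of all rows called, depended on which libraries were used. Of the 57 members, 11 were called in VAT when obese replicate 4 was left out, with a median log2 fold change of 0.38. There 4.28% of all rows were called higher, against 6.82% in the main fit. Leaving out lean replicate 3 gave 17 calls (median 0.46, 4.91% of all rows), lean replicate 4 also 17 (median 0.44, 5.09%), and obese replicate 3 gave 21 (median 0.46, 6.24%). Without both shallow VAT libraries, an alternative added after the data were seen, 43 were called (7.49% of all rows) and the median was 0.53.

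Coding length ran with the size of the difference. Over the 46 core genes, Spearman's rho between coding length and the VAT log2 fold change was -0.58, and between mean level and that fold change -0.31, so members with short coding sequences had the larger values. These are descriptions over genes that share the same 8 libraries. A length check over all rows was void, since 72.2% of the tested rows have a coding length. The part of coding length in the result was not tested.

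Summed B-cell, T-cell and plasma-cell markers had higher means in obese VAT, as the ribosomal proteins did. Of all rows tested, 8.36% did not overlap with obese VAT higher, and the counts of markers below stand beside that share. The summed level of 9 B-cell genes was 317, 194, 44.8 and 150.0 CPM across lean VAT libraries, against 305, 419, 270.0 and 509.8 CPM across the obese ones, with 2 of 9 genes not overlapping and Cr2, which has several rows, under 1 CPM in every library. In SAT the same sum lay between 8.86 and 16.6 CPM. For 7 T-cell genes the sum was 10.9 to 16.2 CPM in lean VAT and 27.2 to 55.9 CPM in obese VAT, with 4 of 7 not overlapping and Cd4, which has several rows, under 1 CPM in every library. For 5 plasma-cell genes it was 148 to 534 CPM and 545 to 1757 CPM, with 2 of 5 not overlapping, and most of it was Jchain, the joining chain of secreted antibodies. Obese replicate 4 had the highest B-cell, T-cell and ribosomal protein sums of the obese VAT libraries, and the highest macrophage sum (2345 CPM). Obese replicate 3 had the lowest B-cell and plasma-cell sums, with a ribosomal protein sum (24271 CPM) above those of replicates 1 and 2. Obese replicate 1 had the highest plasma-cell sum with the lowest ribosomal protein sum. The part of these cells in the result was not tested.

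Macrophage and adipocyte marker sums differed by diet in both tissues. The summed level of 7 macrophage genes was 957 to 1098 CPM in lean VAT and 1758 to 2345 CPM in obese VAT. Of the 7, 5 did not overlap, where 8.36% of all rows were apart with obese VAT higher. Adgre1, which encodes F4/80 and has several rows, was under 1 CPM in every library. In SAT the macrophage sum was 592 to 771 CPM in lean mice and 981 to 1415 CPM in obese mice. The summed level of 8 adipocyte genes was lower in obese mice, at 57587 to 92116 CPM against 28112 to 48129 CPM in VAT and 87948 to 117207 CPM against 52413 to 74745 CPM in SAT. Obese was lower without overlap for 2 of 8 in VAT (663 of all 13288 rows) and 1 of 8 in SAT (1015 of all 13288 rows). That gene in SAT was Car3, a carbonic anhydrase abundant in adipocytes, at 40059 to 59372 CPM in lean and 15278 to 22545 CPM in obese mice, and it makes up most of the difference in the SAT sum. Of 5 genes of lipid-associated macrophages, 2 were apart and higher in obese VAT, among them Gpnmb at 19.9 to 33.1 CPM in lean and 199.7 to 1067 CPM in obese mice. The sum of those 5 was lower in obese VAT, at 21148 to 28881 CPM against 15852 to 18976 CPM, since it is mostly Lpl, a lipase that adipocytes also express. The part of these cells, and of the mitochondrial share given above, was not tested either.

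**Figure D4:**
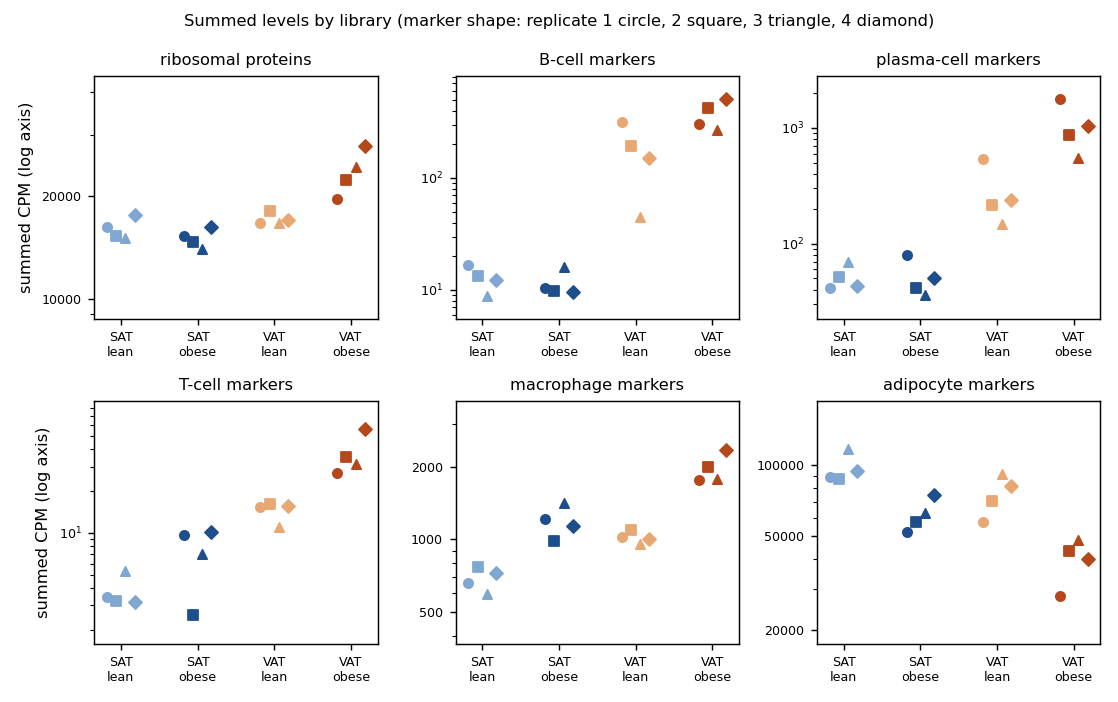
Summed CPM of the core ribosomal proteins and of 5 marker lists, by group and replicate, each on its own log axis. In VAT the ribosomal protein, T-cell and macrophage sums of obese libraries lie above all lean ones, the B-cell and plasma-cell sums are higher with B cells overlapping, and the adipocyte sums lie below. In SAT the macrophage sums of obese libraries lie above all lean ones, and the ribosomal protein sums overlap on this TMM scale. As a share of all counts the SAT ribosomal protein values are apart and lower in obese mice.

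In SAT no ribosomal protein gene was called between obese and lean mice. The count was 0 of 57 with edgeR, DESeq2 and limma voom, and 0 had an unadjusted p below 0.05, where 11.0% of all rows tested were called in either direction. The median log2 fold change was -0.074, with 11 genes above 0 and 46 below. No member's groups were apart in SAT (0 of 57), where 17.2% of all rows were apart in either direction. Scaling by library totals, added after the data were seen, moved the median of all rows to -0.20 and of the members to -0.29 and called 8 members lower, a share near the 12.8% of all rows called lower there.

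Groups of single members in SAT overlapped. Rpl13a was at 392, 328, 333 and 485 CPM in lean SAT and 354, 362, 277 and 329 CPM in obese SAT (log2 fold change -0.22, SE 0.13, adjusted p = 0.329). Rps3a1 was at 1106, 1138, 1124 and 1187 CPM in lean SAT and 893, 807, 944 and 1109.8 CPM in obese SAT, where 3 obese libraries lay below all lean ones and the other lay inside the lean range (log2 fold change -0.28, SE 0.14, adjusted p = 0.220). Rplp0 was at 729.6, 640.0, 586 and 811 CPM in lean SAT and 787, 828, 571 and 631 CPM in obese SAT (log2 fold change 0.026, SE 0.14, adjusted p = 0.938). Standard errors in SAT were 0.13 to 0.14 for these genes. The fit shares its estimate of the spread over all 16 libraries, so errors in SAT and VAT are alike by construction. A difference of the size of the VAT median (0.48) would have been several of these standard errors from 0.

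Whether the diet response differed between the depots was tested within mice. The difference, VAT minus SAT, was above 0 for all 57 genes, with a median of 0.53 against 0.031 over all rows. It was called for 9 genes, where 0.880% of all rows were called higher, and for 0 in the other direction (0 at an unadjusted p below 0.05, 0 by DESeq2 and limma voom). At an unadjusted p below 0.05 it was 48 of 57. Among the 9 were Rpl37, Rpl13a and Rpl27a of the 60S subunit and Rps3a1, Rps14, Rps7, Rps16 and Rps20 of the 40S subunit. All 9 are core genes.

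The 5 with the smallest adjusted p had differences of 0.78 (Rpl37, SE 0.17, adjusted p = 0.0153), 0.78 (Rpl13a, SE 0.17, adjusted p = 0.0169), 0.63 (Rps3a1, SE 0.15, adjusted p = 0.0270), 0.65 (Rpl27a, SE 0.16, adjusted p = 0.0369) and 0.65 (Rps14, SE 0.16, adjusted p = 0.0381) on the log2 scale. Rpl27a, a 60S protein with the longest pyrimidine run printed above, was at 313, 325, 271 and 378 CPM in lean SAT, 281, 277, 257 and 335 CPM in obese SAT, 397, 402, 336 and 303 CPM across lean VAT libraries, against 504, 480.4, 523 and 505 CPM across the obese ones. Its 4 obese VAT libraries were close together and above every other library. Rps14, a 40S protein whose loss in humans impairs red cell formation, was at 370.0, 352, 350.4 and 432 CPM in lean SAT, 360.1, 338, 312 and 360.5 CPM in obese SAT, 308, 348, 326 and 376 CPM across lean VAT libraries, against 372, 450.2, 508 and 649 CPM across the obese ones. Rps3a1 differed because its SAT and VAT values moved apart, with -0.28 in SAT and 0.37 in VAT, neither of which passed.

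Calls of this difference depended on the animals more than its direction did. Leaving out lean mouse 4 or obese mouse 3 left 0 of 57 called, where 0.448% and 0.733% of all rows were called higher (0.880% in the main fit). Leaving out obese mouse 4 left 1 (0.346% of all rows), leaving out lean mouse 3 left 2 (0.397%), and leaving out obese mouse 1 gave 20 (0.851%). All 57 values stayed above 0 each time. Without the mouse as a block 2 were called (0.346% of all rows), and DESeq2 called 22 (1.44%).

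Within lean mice, VAT and SAT had like levels of ribosomal protein transcripts. Of 57 genes, 2 were called higher in VAT and 1 lower, where 14.8% of all rows were called in either direction, and the median log2 difference was 0.068. Rps2, a 40S protein at the mRNA entry site, was at 301, 277, 266 and 336 CPM in SAT and 495, 364, 404 and 382 CPM in VAT of lean mice (log2 fold change 0.47, SE 0.11, adjusted p = 0.00474). All VAT libraries of Rps2 were above those of SAT. Rpsa was at 739, 679.5, 677 and 816 CPM in SAT and 1018, 916, 864 and 849 CPM in VAT, also apart (log2 fold change 0.33, SE 0.10, adjusted p = 0.0384). Leaving out lean mouse 4 raised the count called higher to 9, where 7.16% of all rows were. Library totals gave 9 as well, where 10.7% of all rows were called higher and their median was 0.15 (0.014 with TMM factors).

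Within obese mice, 48 of 57 genes were higher in VAT than in SAT and 0 lower, where 15.9% of all rows were called higher. In the lower direction, 1 had an unadjusted p below 0.05, and DESeq2 and limma voom called 0. The median log2 difference was 0.60 against 0.042 over all rows. Among core genes 43 of 46 were called, all but Rpl21, Rpl24 and Rpl4. This comparison uses the same obese VAT libraries as the diet comparison above, so the counts are not independent of each other.

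The smallest adjusted p in obese mice belonged to Rpsa, Rpl13a, Rps16, Rpl8 and Rpl13. Rpsa was at 697, 686, 576 and 640.0 CPM in SAT and 1096, 1125, 1166 and 1329 CPM in VAT of obese mice (log2 fold change 0.86, SE 0.11, adjusted p = 1.63e-06). Rpl13a had a log2 difference of 1.00 (SE 0.12, adjusted p = 2.20e-06), and Rps16 of 0.85 (SE 0.12, adjusted p = 6.51e-06). Rpl8, a 60S protein near the catalytic centre, was at 288, 302, 187 and 193 CPM in SAT and 602, 414, 504 and 505 CPM in VAT (log2 fold change 1.09, SE 0.15, adjusted p = 7.31e-06). Rpl13, a 60S protein, was at 186, 213, 168 and 189 CPM in SAT and 396, 334, 359.6 and 377 CPM in VAT (log2 fold change 0.96, SE 0.13, adjusted p = 8.70e-06). For all 5 genes every VAT library was above every SAT library. In the diet comparison in VAT, Rpl8 had a log2 fold change of 0.48 that did not pass (adjusted p = 0.119), and Rpl13 one of 0.56 that did (adjusted p = 0.0222).

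The paralogs, which replace or resemble a core protein in some tissues, varied more. Rpl36al, a near copy of Rpl36a, was at 66.0, 114, 102 and 110.0 CPM across lean VAT libraries, against 112, 131, 133 and 162 CPM across the obese ones, and missed the limit (log2 fold change 0.44, SE 0.14, adjusted p = 0.0501). In obese mice its VAT and SAT levels differed by a log2 value of 0.025 (adjusted p = 0.909). Rps27rt, a copy of Rps27 without introns, was at 19.2, 20.2, 15.0 and 12.5 CPM across lean VAT libraries, against 18.4, 31.8, 29.9 and 31.5 CPM across the obese ones and was called (log2 fold change 0.78, SE 0.20, adjusted p = 0.0132). Rpl7l1, which acts in making the 60S subunit, was at 134, 151, 156 and 168 CPM across lean VAT libraries, against 139, 173, 168 and 179.7 CPM across the obese ones (log2 fold change 0.11, SE 0.11, adjusted p = 0.595), and its mean in the 4 groups was between 152 and 167 CPM. Rps4l, listed as a non-coding transcript, was at 34.7, 24.1, 26.5 and 43.2 CPM in lean SAT and 37.2, 11.6, 16.3 and 16.7 CPM in lean VAT, and was the member called lower in VAT of lean mice (log2 fold change -0.79, SE 0.22, adjusted p = 0.0163). Its diet fold change in VAT was -0.023. Rpl10l was listed at 0. Rps27l, Rpl22l1, Rpl39l and Rpl3l have several rows and 157, 108, 18 and 4 summed counts.

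Of the 9 pseudogenes 5 were tested, and Rpl34-ps1 was called in VAT, at 26.9, 29.3, 32.4 and 36.3 CPM across lean VAT libraries, against 28.4, 41.8, 49.2 and 62.4 CPM across the obese ones (log2 fold change 0.55, SE 0.18, adjusted p = 0.0476). The median over the 5 was 0.48. Reads from the parent genes may be counted there. Rps19bp1, whose protein binds Rps19, was at 16.7, 17.7, 19.7 and 20.2 CPM across lean VAT libraries, against 28.4, 25.6, 23.4 and 22.8 CPM across the obese ones, apart but not called (log2 fold change 0.40, SE 0.15, adjusted p = 0.0934).

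Genes with several rows, summed per gene, had a lower median on far fewer counts. Of 35 genes 28 were tested, 22 had a VAT log2 fold change above 0, the median was 0.25 and 1 was called higher, a share below the 6.82% of all rows. That gene was Rps28, a 40S protein, at 33.3, 43.4, 35.8 and 30.9 CPM across lean VAT libraries, against 54.8, 57.0, 67.9 and 70.2 CPM across the obese ones (log2 fold change 0.75, SE 0.14, adjusted p = 0.000796). The others among the 5 with the most counts were Rpl5, which carries 5S rRNA into the ribosome (log2 fold change 0.40, adjusted p = 0.0763), Rps4x (0.26, 0.528), Rps15 (0.40, 0.278) and Rplp2 (-0.18, 0.827), in the same order of values. In SAT 0 of 28 were called and the median was -0.17. VAT was called higher than SAT in obese mice for 5 of 28, a share near the 15.9% of all rows.

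Lists of other translation genes had lower median fold changes in VAT. Rack1, a scaffold protein on the 40S subunit that the symbol rule leaves out, was at 599.5, 627, 629.7 and 631 CPM across lean VAT libraries, against 700.2, 858, 868 and 1052 CPM across the obese ones and was called (log2 fold change 0.48, SE 0.11, adjusted p = 0.00678). Of 6 elongation factors and other TOP mRNAs with 1 row, 1 was called higher in VAT, where 6.82% of all rows were, and all 6 were above 0 (median 0.23). The called gene was Eef1b2, which reloads elongation factor 1A (log2 fold change 0.40, SE 0.13, adjusted p = 0.0435), while Eef1a1, the factor that delivers aminoacyl-tRNA, had a log2 fold change of 0.18 (adjusted p = 0.506) and Eef2, the translocation factor, one of 0.19 (adjusted p = 0.395). Tpt1, a TOP mRNA that encodes a growth-related protein, was at 0.36 in VAT (adjusted p = 0.0595) and -0.20 in SAT, and its difference of 0.55 between the depots passed (adjusted p = 0.0332).

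Of 18 initiation factors with 1 row, 0 were called in VAT by edgeR (median 0.11), with 3 at an unadjusted p below 0.05, 0 by DESeq2 and 1 by limma voom. Of all rows tested, 6.82% were called higher and 4.09% lower in VAT, so 0 calls in lists of 18 or 16 genes is near those shares. Of 16 tested genes of ribosome biogenesis, 0 were called in VAT by edgeR (median 0.11), with 2 at an unadjusted p below 0.05, and DESeq2 and limma voom called 1 each. In SAT the biogenesis list had 2 called higher and 1 lower. Those were Rrn3, an initiation factor of RNA polymerase I (0.85, adjusted p = 0.0105), Heatr1, which acts in processing of the small-subunit rRNA (0.35, adjusted p = 0.0470), and Rrs1, a 60S assembly factor (-0.40, adjusted p = 0.0355). The difference between the ribosomal protein and these lists was not tested.

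**Figure D5:**
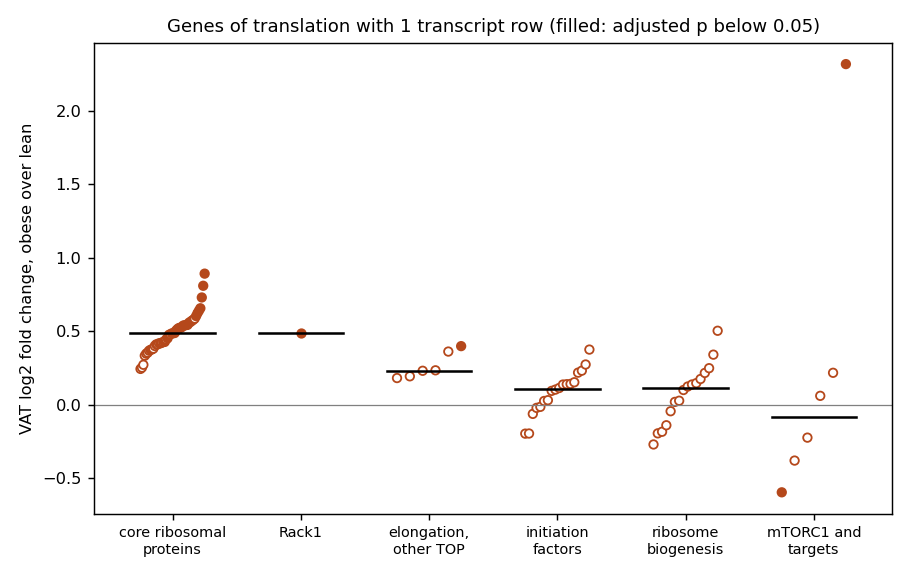
VAT log2 fold change, obese over lean, of core ribosomal proteins and of other genes of translation with 1 row. Each circle is a gene, filled where the adjusted p was below 0.05, and black lines are medians. The core ribosomal proteins have a median of 0.49 with 30 of 46 called, and the initiation and biogenesis lists have a median of 0.11 with 0 called. Of all rows tested, 6.82% were called higher.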

How the data were processed

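Poly-A RNA of SAT and VAT from 4 lean and 4 obese mice was sequenced. The authors trimmed reads with Trim Galore (0.6.6 in the submitters' processing notes, while the published methods give another version), aligned them to GRCm39 with HISAT2 2.2.0 and counted them on RefSeq transcripts with HTSeq 0.13.5. The deposited counts are raw, and the deposited CPM are those counts over the column total. How reads shared between transcripts were treated, and the strand setting of the counting (the kit was directional), are not given in the sources used here. Accessions gave symbols for 106811 of 130343 rows.

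Rows whose CPM passed 1 in 3 or more of the 16 libraries were tested with the quasi-likelihood F-test of edgeR 4.0.16 (R 4.3.3, legacy=TRUE, TMM factors, Benjamini-Hochberg adjustment). Diets were compared within a tissue over all 16 libraries. The tissues, and the difference of the diet response, were compared with the mouse as a block. The labels tie SAT and VAT to a mouse, and deviations of the 8 pairs correlated between -0.0090 and 0.17. Between SAT and VAT of different mice of a diet the range was -0.15 to 0.12, so the ranges overlap. No pair of libraries within a group was a copy. DESeq2 1.42.0 and limma 3.58.1 served as alternatives. The edgeR group fit (SAT and VAT) and mouse-block fit (obese mice and the difference) were run on simulated counts that held no mouse effect. DESeq2 and limma voom were run on them for VAT without the mouse, and the other settings were not simulated. The SD given with CPM holds counting error and differences between animals together, and the depth of each library limits rare members most. Gene coordinates and coding lengths (CCDS-tagged transcripts) came from GENCODE M39.

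The members and gene lists were chosen with earlier results of these data known. Named members were the 5 with the smallest adjusted p in each comparison and direction (all where 8 or fewer were called), a set of well-known ribosomal proteins, every paralog, and those with the most and fewest counts. Some members are counted in totals but not reported or drawn here by name.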

Additional observations from a re-analysis of the deposited data

Results flagged for a closer look

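In groups of 4 libraries, Dixon's ratio, the gap of an end value to its neighbour over the range, passed its critical value for 4 samples in 4 of 92 groups examined among the named members, and chance passes about 1 in 20 such groups. VAT lean replicate 1, the shallowest library, was the high end of 3 of them. Rplp1 was at 372.8 CPM there and at 171.9 to 179.2 CPM in the other lean VAT libraries (ratio 0.964). Rpl13a was at 531 CPM against 399.5 to 419.4 CPM (ratio 0.849), and Rpl8 at 522.7 CPM against 289 to 326.3 CPM (ratio 0.84). Without lean replicate 1 the VAT log2 fold change of Rplp1 was 0.90 and passed. Rps27rt was at 18.4 CPM in VAT obese replicate 1 and at 29.9 to 31.8 CPM in the other obese VAT libraries (ratio 0.86).

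The diet response differed between VAT and SAT by the test of the difference itself for the 5 members named for it. The difference in log2 fold change was 0.784 for Rpl37 (adjusted p = 0.0153), 0.784 for Rpl13a (adjusted p = 0.0169), 0.632 for Rps3a1 (adjusted p = 0.027), 0.654 for Rpl27a (adjusted p = 0.0369) and 0.651 for Rps14 (adjusted p = 0.0381).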

How the results depend on the processing

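In VAT the median log2 fold change of the members was above 0 in every setting run, with 21 to 43 members called higher apart from mice left out. The share of all rows called higher in those settings was 1.95% to 8.79%. The 32 calls became 21 in a fit of the 8 VAT libraries (6.21% of all rows), and 11 to 36 with a mouse left out (4.28% to 7.16%). Without the filter on low counts 22 were called (1.95% of all rows). Calls lower in VAT were 0 throughout.

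Library totals, an alternative added after the data were seen, brought the median of all rows to -0.20 in SAT, 0.15 and 0.37 in the depot comparison of lean and obese mice and 0.23 in the difference of the diet response, from 0.0071, 0.014, 0.042 and 0.031 with TMM factors. They gave medians of -0.29 with 8 members called lower in SAT (12.8% of all rows), 0.21 with 9 higher (10.7% of all rows) and 0 lower between depots in lean mice, 0.93 in obese mice, and 0.72 with 39 higher (2.78% of all rows) for the difference. The summed SAT level, obese over lean, was 0.94 with TMM factors and 0.81 as a share of the column total.

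In lean mice the member called lower in VAT became 2 with RLE size factors (7.26% of all rows) and with DESeq2 (7.17%), and 0 with no mouse block (6.00%). With a mouse left out, 1 to 9 were called higher (5.66% to 8.54% of all rows) and 0 to 1 lower (4.48% to 7.18%). In obese mice 1 member was called lower without the filter (4.27% of all rows), and 0 to 1 with a mouse left out (9.24% to 15.9%). For the difference of the diet response the 9 calls became 4 without the filter (0.233% of all rows), 2 with no mouse block (0.346%), 15 with limma voom (1.11%) and 22 with DESeq2 (1.44%). With a mouse left out they became 0 to 20 (0.346% to 1.07%). The causes were not tested.

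The labels tie no lean mouse to an obese mouse of the same number. Deviations of same-numbered libraries correlated between -0.094 and 0.054 in SAT and between 0.081 and 0.17 in VAT, and 1 of 8 SAT and 6 of 8 VAT libraries were closest to their own number in the other diet, a hint from the data only. With that replicate block, 38 members were called higher in VAT (7.38% of all rows) and 0 in SAT (6.90% of all rows). Members with few counts, among them Rpl4, set the limit of depth.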

Other observations

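Regulators of mTORC1, the kinase that controls translation of TOP mRNAs, had their own values in both depots. Ddit4, an inhibitor of mTORC1 induced by stress, was at 56.4, 23.3, 32.3 and 31.8 CPM across lean VAT libraries, against 147, 175, 116 and 233 CPM across the obese ones (log2 fold change 2.32, SE 0.34, adjusted p = 9.86e-05), and rose in SAT too (log2 fold change 2.09, SE 0.33, adjusted p = 0.000197). Sesn2, another inhibitor, was higher in obese SAT (log2 fold change 0.90, SE 0.17, adjusted p = 0.000973) and had a log2 fold change of 0.22 in VAT (adjusted p = 0.495). Sesn3 was lower in obese VAT (log2 fold change -0.60, SE 0.15, adjusted p = 0.00948) and had 0.23 in SAT (adjusted p = 0.331). Of the 6 genes of this list with 1 row, 1 was called higher and 1 lower in VAT, and 2 higher and 0 lower in SAT. Over all rows tested, the shares were 6.82% higher and 4.09% lower in VAT, and 11.0% in either direction in SAT.

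Pyrimidine runs stood in called and uncalled members. Of 33 core genes with a window, 22 were called in VAT and 13 of those held a run, and 6 of the 11 not called held one. The median VAT log2 fold change was 0.49 over the 19 genes with a run and 0.42 over the 14 without, a difference that was not tested.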
